A study of Mus musculus with 16 samples.

Results

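Mast cell genes were followed in mouse skin: the granule proteases Cma1, Mcpt4, Cpa3 and Tpsb2, the IgE receptor genes Fcer1a and Ms4a2, and Hdc. They were chosen by name, with earlier results of these data known. The shares of all genes given beside their counts are therefore descriptions and no test. Each was read from the probe set that the array's gene table assigns to its symbol alone. Where there were several, the one with the highest mean over the 16 arrays was taken. All 7 were on the array, with 10 probe sets between them, out of 18194 genes with such a probe set. Of these 7, 5 passed a filter on low values (a log2 value above 4 in at least 2 arrays) and could be tested among the 12087 genes that passed. Fcer1a and Ms4a2 did not pass.

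Affymetrix arrays had been made of RNA from whole dorsal skin, and all groups were female mice of the inbred strain C57/B6 (so spelled in the source and description fields, while the sample titles have C57/B7). Skin treated with tofacitinib was taken at day 5 from 3 mice (mice 7, 8 and 9), skin treated with ruxolitinib at day 5 from 2 mice (4 and 6), and skin given dimethyl sulfoxide (DMSO, the vehicle) at day 5 from 2 mice (2 and 3). These 7 mice and mice 1 and 5 each gave a day-0 array before any application, at an age of 8.5 weeks (n = 9). The agents were applied to the skin daily for 4 days, at doses not given in the sources used here. Both drugs inhibit Janus kinases, which relay signals from cytokine receptors to STAT transcription factors. The labels name no engineered allele. No skin without application at day 5 was analysed here, so the interval, the earlier sampling of the same mouse and the application itself cannot be told apart in a comparison of day 5 with day 0. For mouse 7 at day 5 the labels disagree, since 1 field gives ruxolitinib and the others tofacitinib, and its array was grouped as tofacitinib.

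Mast cells live in the dermis of mouse skin, around vessels, nerves and hair follicles, and store proteases, histamine and heparin in granules that are released when IgE bound to its high-affinity receptor is cross-linked. Skin mast cells of the mouse are of the connective tissue type, which expresses Cma1, Mcpt4, Cpa3 and Tpsb2. Their survival depends on the receptor tyrosine kinase Kit and its ligand Kitl, and the transcription factor Gata2 is required for their development.

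All values are log2 GCRMA values per probe set. In 27 control probe sets without a target the median was 1.70 and the highest value 2.43, which is used as the level of background. Array medians lay between 3.75 and 3.94. Since probe sets differ in how strongly they bind, a level is compared between groups for 1 gene, not between genes. In whole skin, more cells of a type and more RNA per cell cannot be told apart.

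Of the 5 members that differed between the days, the stretches that precede the start are shown for all but Tpsb2, because Gata2, whose protein binds GATA sites, also differed between the days. They are the 250 bases before the start of each gene in RefSeq on GRCm38.p6, written 5′ to 3′ on the gene's own strand, which is the minus strand for all 4. Capitals mark AGATAA or TGATAA, searched on both strands (TTATCT and TTATCA on the other). The window of Cma1 is chr14:55944676-55944925, that of Mcpt4 chr14:56062311-56062560, that of Cpa3 chr3:20242182-20242431 and that of Hdc chr2:126618679-126618928.
Cma1: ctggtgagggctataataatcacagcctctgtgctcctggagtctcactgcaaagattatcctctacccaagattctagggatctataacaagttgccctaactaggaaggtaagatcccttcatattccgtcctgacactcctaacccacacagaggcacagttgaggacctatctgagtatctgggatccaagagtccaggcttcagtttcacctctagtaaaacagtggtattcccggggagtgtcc
Mcpt4: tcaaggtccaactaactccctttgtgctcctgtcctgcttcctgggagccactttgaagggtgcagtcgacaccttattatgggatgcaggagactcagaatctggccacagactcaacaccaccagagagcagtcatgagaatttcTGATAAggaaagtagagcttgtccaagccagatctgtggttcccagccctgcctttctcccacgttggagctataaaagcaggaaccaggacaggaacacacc
Cpa3: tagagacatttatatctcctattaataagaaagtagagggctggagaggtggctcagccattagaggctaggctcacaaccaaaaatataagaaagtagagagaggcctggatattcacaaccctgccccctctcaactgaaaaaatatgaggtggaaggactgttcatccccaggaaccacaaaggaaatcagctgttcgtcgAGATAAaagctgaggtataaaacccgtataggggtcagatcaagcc
Hdc: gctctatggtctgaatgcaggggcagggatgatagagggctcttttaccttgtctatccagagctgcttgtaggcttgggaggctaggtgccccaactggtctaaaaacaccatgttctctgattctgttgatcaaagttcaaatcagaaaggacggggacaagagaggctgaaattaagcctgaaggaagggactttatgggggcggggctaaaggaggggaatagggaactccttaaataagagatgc
Mcpt4 held 1 TGATAA, 103 bases before the start, and Cpa3 held 1 AGATAA, 46 bases before it. Cma1 and Hdc held neither in this window. Of the members that were not tested, Fcer1a held 1 match and Ms4a2 held 3. Of 32851 windows of the same length, 16.6% held at least 1 of these words, 9.99% AGATAA and 7.94% TGATAA. A match is a description of these letters and no measurement of binding. Whether Gata2 had a part in the levels of these genes was not tested.

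The granule protease genes were all at a higher level at day 5 than at day 0. In the mean of the day-5 groups against day 0, all 4 and Hdc rose at an adjusted p under 0.05. These are 5 of the 5 tested members, where 29.7% of all tested genes were called higher. Tpsb2 among them passed the filter only with the help of day-5 arrays. Cma1 (Entrez 17228), on chromosome 14, encodes mast cell chymase. Its level was 6.79, 5.65 and 6.18 in tofacitinib skin of mice 7, 8 and 9, 5.95 and 6.23 in ruxolitinib skin of mice 4 and 6, and 4.84 and 5.89 in DMSO skin of mice 2 and 3, against a lowest, median and highest value of 3.26, 3.84 and 5.31 at day 0. Every inhibitor array lay above every day-0 array, while the DMSO array of mouse 2 lay within the day-0 range. The mean of the day-5 groups was 1.81 ± 0.30 log2 units above day 0 (SE, 3.52-fold, adjusted p = 0.000103 by limma).

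Mcpt4 (Entrez 17227), in the same chromosome 14 cluster, encodes a chymotrypsin-like protease of connective tissue mast cells. Its level was 6.76, 5.91 and 5.32 in tofacitinib skin of mice 7, 8 and 9, 5.48 and 6.65 in ruxolitinib skin of mice 4 and 6, and 5.48 and 5.26 in DMSO skin of mice 2 and 3, against 2.31, 4.02 and 5.25 at day 0 (lowest, median and highest). All 7 day-5 arrays lay above all 9 day-0 arrays, of which 1 was at background, but the lowest day-5 and the highest day-0 array nearly met. The mean of the day-5 groups was 1.83 ± 0.39 log2 units above day 0 (SE, 3.55-fold, adjusted p = 0.000876 by limma).

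Cpa3 (Entrez 12873), on chromosome 3, encodes carboxypeptidase A3, a granule enzyme that trims C-terminal residues. Its level was 6.30, 5.39 and 5.59 in tofacitinib skin of mice 7, 8 and 9, 5.61 and 5.82 in ruxolitinib skin of mice 4 and 6, and 4.74 and 5.08 in DMSO skin of mice 2 and 3, against 2.68, 3.51 and 4.97 at day 0 (lowest, median and highest). The inhibitor arrays lay above all day-0 arrays, and the DMSO array of mouse 2 did not. The mean of the day-5 groups was 1.73 ± 0.32 log2 units above day 0 (SE, 3.32-fold, adjusted p = 0.000327 by limma).

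Tpsb2 (Entrez 17229) encodes a tryptase that is stored with heparin as a tetramer. Its level was 6.07, 4.98 and 4.26 in tofacitinib skin of mice 7, 8 and 9, 4.63 and 5.49 in ruxolitinib skin of mice 4 and 6, and 4.23 and 4.56 in DMSO skin of mice 2 and 3, against 2.64, 3.42 and 4.26 at day 0 (lowest, median and highest). The DMSO array of mouse 2 lay just inside the day-0 range, and the tofacitinib array of mouse 9 just above it. The mean of the day-5 groups was 1.37 ± 0.26 log2 units above day 0 (SE, 2.59-fold, adjusted p = 0.000325 by limma). Tpsb2 is the 1 tested member that would not have passed the filter on its day-0 arrays alone, with 1 of 9 above the filter level. The filter thus favoured a rise in it, which limits what its tests against day 0 show. Every count of 5 tested members given here includes it. Its other probe set stayed near background in every group, with means of 2.44, 2.66, 2.86 and 2.60 in tofacitinib, ruxolitinib, DMSO and day-0 skin, and its day-5 mean differed from day 0 by 0.06 ± 0.10 (SE, adjusted p = 0.613 by limma). The rise of Tpsb2 therefore rests on 1 of its 2 probe sets.

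Hdc (Entrez 15186), on chromosome 2, encodes histidine decarboxylase, which makes histamine. It had the largest mean change of the 5 tested members. Its level was 7.48, 6.09 and 5.53 in tofacitinib skin of mice 7, 8 and 9, 5.94 and 6.11 in ruxolitinib skin of mice 4 and 6, and 5.46 and 6.03 in DMSO skin of mice 2 and 3, against 2.55, 4.12 and 4.84 at day 0 (lowest, median and highest). All day-5 arrays lay above all day-0 arrays, those with DMSO included. The mean of the day-5 groups was 2.14 ± 0.30 log2 units above day 0 (SE, 4.42-fold, adjusted p = 2.66e-05 by limma). Its other probe set lay close to background, with means of 2.80, 2.67, 2.72 and 2.36 in tofacitinib, ruxolitinib, DMSO and day-0 skin, and its day-5 mean was also higher, by 0.37 ± 0.11 (SE, adjusted p = 0.00726 by limma).

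The IgE receptor genes were at or near background in all groups. Fcer1a (Entrez 14125) encodes the IgE-binding alpha chain, and averaged 1.45 in tofacitinib skin, 1.56 in ruxolitinib skin, 1.42 in DMSO skin and 1.25 at day 0. All 16 arrays lay at or under 2.43, so this probe set gave no level above background for it. Ms4a2 (Entrez 14126) encodes the beta chain, which amplifies the signal of the receptor. It averaged 2.69 in tofacitinib skin, 2.40 in DMSO skin and 2.46 at day 0, and lay at 1.94 and 3.23 in the ruxolitinib skin of mice 4 and 6. The day-0 arrays ran between 1.23 and 3.19, so all day-5 values lay within or just above the day-0 range. The other probe set of Ms4a2 lay at or under background on all 16 arrays. Its means were 1.42, 1.61, 1.27 and 1.28 in tofacitinib, ruxolitinib, DMSO and day-0 skin. With no filter on low values, the day-5 mean of Fcer1a was 0.23 ± 0.10 above day 0 (SE, adjusted p = 0.0563 by limma) and that of Ms4a2 0.09 ± 0.26 (SE, adjusted p = 0.790). The skin thus held measurable transcripts of the proteases and Hdc. Of the IgE receptor chains, Fcer1a gave no level above background and Ms4a2 one near it.

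**Figure D1:**
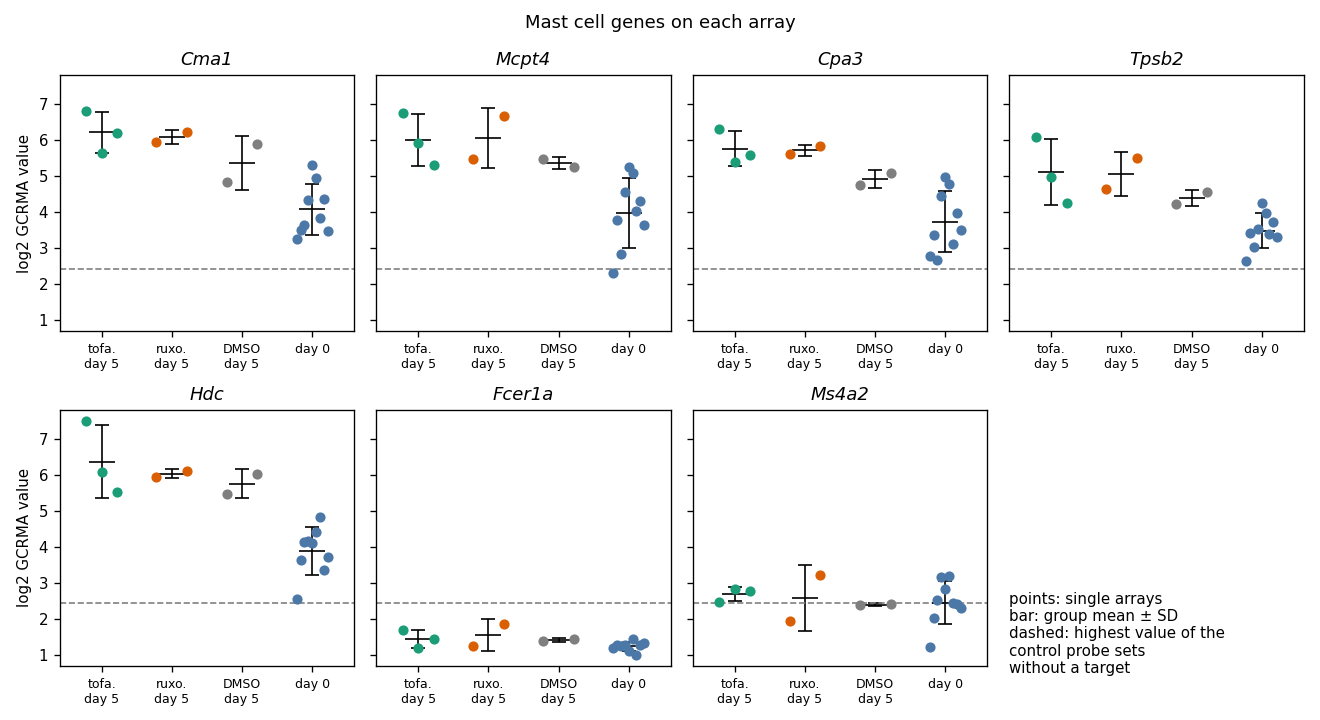
Log2 GCRMA level of the 7 genes on each of the 16 arrays, by group, with the group mean ± SD as a bar and the highest control probe set (2.43) as a dashed line. The 4 proteases and Hdc are higher in the day-5 groups than at day 0, and Fcer1a lies under the dashed line on every array.

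The order of the group means was tofacitinib, ruxolitinib, DMSO and day 0 for Cma1, Cpa3, Tpsb2 and Hdc, and for Mcpt4 ruxolitinib came before tofacitinib. Cma1 averaged 6.21 ± 0.57 in tofacitinib skin, 6.09 ± 0.20 in ruxolitinib skin, 5.37 ± 0.74 in DMSO skin and 4.08 ± 0.71 at day 0 (SD, n = 3, 2, 2 and 9). Hdc averaged 6.37 ± 1.01, 6.02 ± 0.13, 5.75 ± 0.40 and 3.89 ± 0.66 in the same groups. Neighbours among the day-5 groups in this order lay within each other's spread or did not pass a test, and the widest step was the one to day 0 for these 2 genes.

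Against day 0, each treatment gave its own comparison, and these comparisons share the 9 day-0 arrays. With tofacitinib, 5 of the 5 tested members rose, where 22.7% of all tested genes were called higher. The differences were 2.15 ± 0.39 for Cma1 (SE, 4.43-fold, adjusted p = 0.000572), 2.02 ± 0.52 for Mcpt4 (4.05-fold, adjusted p = 0.00528) and 2.05 ± 0.43 for Cpa3 (4.13-fold, adjusted p = 0.00154). They were 1.63 ± 0.34 for Tpsb2 (3.09-fold, adjusted p = 0.00150) and 2.47 ± 0.40 for Hdc (5.55-fold, adjusted p = 0.000221). The tofacitinib and day-0 arrays did not overlap for any of the 5, against 12.9% of all genes that were higher without overlap. The fit takes the mouse into account, so that a difference is not exactly that of the group means.

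With ruxolitinib, 5 of the 5 tested members rose as well, where 12.5% of all tested genes were called higher. Their differences lay between 1.55 ± 0.40 for Tpsb2 (SE, 2.94-fold, adjusted p = 0.00860) and 2.10 ± 0.47 for Hdc (4.28-fold, adjusted p = 0.00356). Cma1 differed by 1.95 ± 0.46, Mcpt4 by 2.01 ± 0.61 and Cpa3 by 1.90 ± 0.51, with adjusted p of 0.00513, 0.0199 and 0.0104. The arrays of the 2 groups did not overlap for any of the 5, against 17.1% of all genes. With the mouse as a fixed block, which pairs each day-5 array with the day-0 array of the same mouse, 1 of the 5 passed, Hdc at 1.74 (adjusted p = 0.0141), and the others lay between 1.11 for Cpa3 (adjusted p = 0.131) and 1.45 for Cma1 (adjusted p = 0.0691). Without the ruxolitinib array of mouse 6, 1 of the 5 passed, again Hdc, at 2.01 (adjusted p = 0.0481).

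With DMSO alone, 2 of the 5 tested members rose, where 22.2% of all tested genes were called higher. Hdc differed by 1.86 ± 0.47 (SE, 3.64-fold, adjusted p = 0.00475) and Cma1 by 1.34 ± 0.46 (2.53-fold, adjusted p = 0.0260). Mcpt4 differed by 1.46 ± 0.61 (adjusted p = 0.0574), Cpa3 by 1.25 ± 0.51 (adjusted p = 0.0524) and Tpsb2 by 0.94 ± 0.40 (adjusted p = 0.0644), which missed the threshold. The DMSO and day-0 arrays did not overlap for Mcpt4 and Hdc, against 21.6% of all genes. With the mouse as a fixed block 4 of the 5 passed, Mcpt4 at 2.07 (adjusted p = 0.00910) and Cpa3 at 1.89 (adjusted p = 0.0193) among them, and Tpsb2 at 1.16 did not (adjusted p = 0.0711). Without the DMSO array of mouse 3, 0 of 5 passed (1 at an unadjusted p under 0.05), with Hdc at 1.57 (adjusted p = 0.0868). Without the day-0 array of mouse 5, that of mouse 6 or the tofacitinib array of mouse 7, 5 of the 5 passed.

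Over all day-5 arrays, 2 of the 5, Mcpt4 and Hdc, did not overlap with day 0, against 8.48% of all genes that were higher without overlap. The median difference of the 5 in the mean of the day-5 groups was 1.81, and that of all tested genes -0.03. Within single mice, the day-5 array was above the day-0 array of the same animal in 7 of 7 mice for each of the 5 tested members. The change ran between 1.28 and 2.95 log2 units for Cma1, 0.92 and 2.74 for Mcpt4, 1.05 and 3.19 for Cpa3, 0.81 and 2.69 for Tpsb2, and 1.70 and 2.71 for Hdc. Mouse 7 had the highest change for the 4 proteases and mouse 8 for Hdc. Fcer1a was higher in 5 of 7 mice and Ms4a2 in 5 of 7, at levels at or near background, and the change of Ms4a2 in mouse 4 was -1.21.

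**Figure D2:**
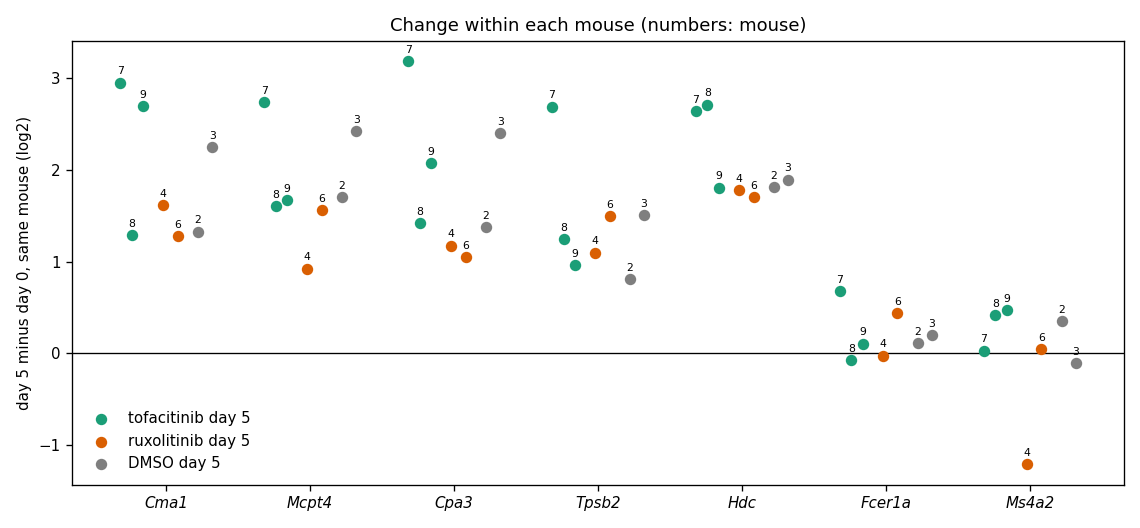
Change in log2 level between day 5 and day 0 of the same mouse for the 7 genes, each point a mouse with its number, coloured by treatment. All points of the 4 proteases and of Hdc lie above 0, and mouse 7 is the highest for each protease.

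The day-5 groups were not shown to differ from each other in any tested member. For tofacitinib against DMSO, the 5 differences lay between 0.56 for Mcpt4 and 0.81 for Cma1 (adjusted p between 0.772 and 0.902 by limma), and 0 passed, where 0.165% of all tested genes were called in either direction. For ruxolitinib against DMSO they lay between 0.24 for Hdc and 0.65 for Cpa3 (adjusted p between 0.588 and 0.874), and 0 passed, against 0.521% of all genes. For the mean of both inhibitors against DMSO they lay between 0.42 for Hdc and 0.72 for Cpa3 (adjusted p between 0.544 and 0.738), and 0 passed, against 0.935%. The count at an unadjusted p under 0.05 was also 0 in each of these comparisons. The intervals are wide: for Cma1 the mean of both inhibitors against DMSO had a 95% interval of -0.37 to 1.80, and for Mcpt4 one of -0.87 to 1.97.

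The inhibitor and DMSO arrays did not overlap for Cma1, Cpa3 and Tpsb2 in ruxolitinib skin, all higher than with DMSO, where 25.4% of all genes were higher without overlap. The order depended on the day-0 levels it was set against. The mice of the ruxolitinib arm already had higher levels at day 0, averaging 4.86 for Cma1, 4.97 for Mcpt4, 4.73 for Cpa3 and 3.93 for Tpsb2, against 3.47, 2.97, 2.94 and 3.04 in the mice of the DMSO arm (n = 3 each). Hdc averaged 4.23 in mice of the ruxolitinib arm and 3.45 in mice of the DMSO arm, and mice of the tofacitinib arm lay between them for all 5. The day-0 arrays of the ruxolitinib and DMSO arms did not overlap for 4 of the 5, the proteases, against 10.6% of all genes. By limma 0 of the 12087 genes passed between these arms at day 0 (2154 at an unadjusted p under 0.05, 4 of the 5 members among them), with adjusted p between 0.269 and 0.367 for the members. With a day-0 mean for each arm, which includes mice 1 and 5 that have no day-5 array, ruxolitinib minus DMSO turned negative, at -0.64 for Cma1, -1.25 for Mcpt4, -0.96 for Cpa3, -0.19 for Tpsb2 and -0.47 for Hdc. With the mouse as a fixed block, which uses each animal's own day 0, it was -0.34 for Cma1, -0.82 for Mcpt4, -0.78 for Cpa3 and -0.11 for Hdc, but stayed positive for Tpsb2 at 0.14, and none of these passed (adjusted p between 0.430 and 0.922).

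**Figure D3:**
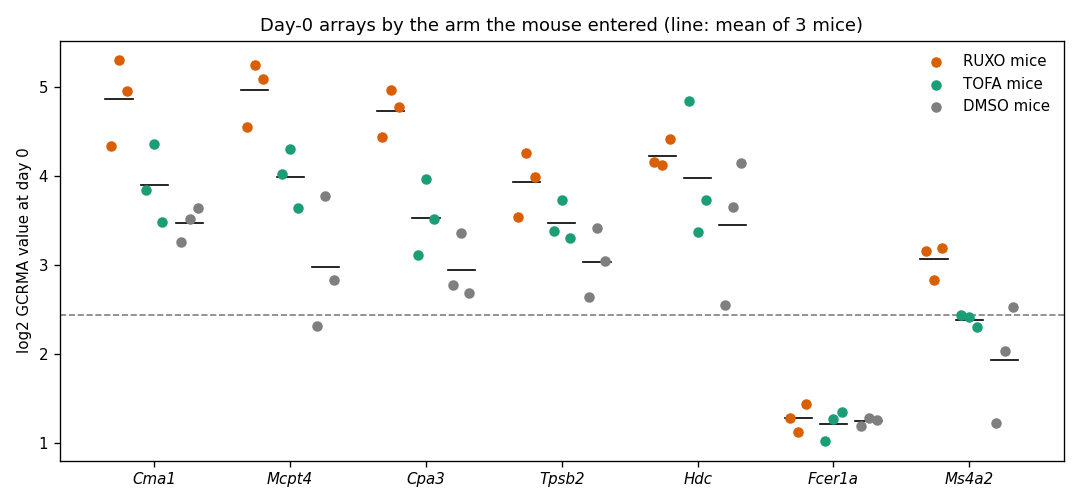
Log2 level of the 7 genes at day 0, before application, in the 3 mice of each arm, with the arm's mean as a line and the highest control probe set (2.43) as a dashed line. For the 4 proteases the mice of the ruxolitinib arm lie above those of the DMSO arm.

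The 2 inhibitors were not shown to differ in any tested member. Tofacitinib minus ruxolitinib was 0.19 for Cma1, 0.01 for Mcpt4, 0.15 for Cpa3, 0.07 for Tpsb2 and 0.37 for Hdc. None passed (adjusted p between 0.941 and 0.998 by limma, 0 at an unadjusted p under 0.05), where 0.0248% of all tested genes were called. The interval for Mcpt4 ran between -1.53 and 1.56, so that the inhibitors are not shown to act alike. The array of mouse 7, with the disputed label, was the highest tofacitinib array for all 5. Grouped as ruxolitinib, it turned the 5 differences negative, between -0.34 for Cma1 and -0.76 for Tpsb2.

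**Figure D4:**
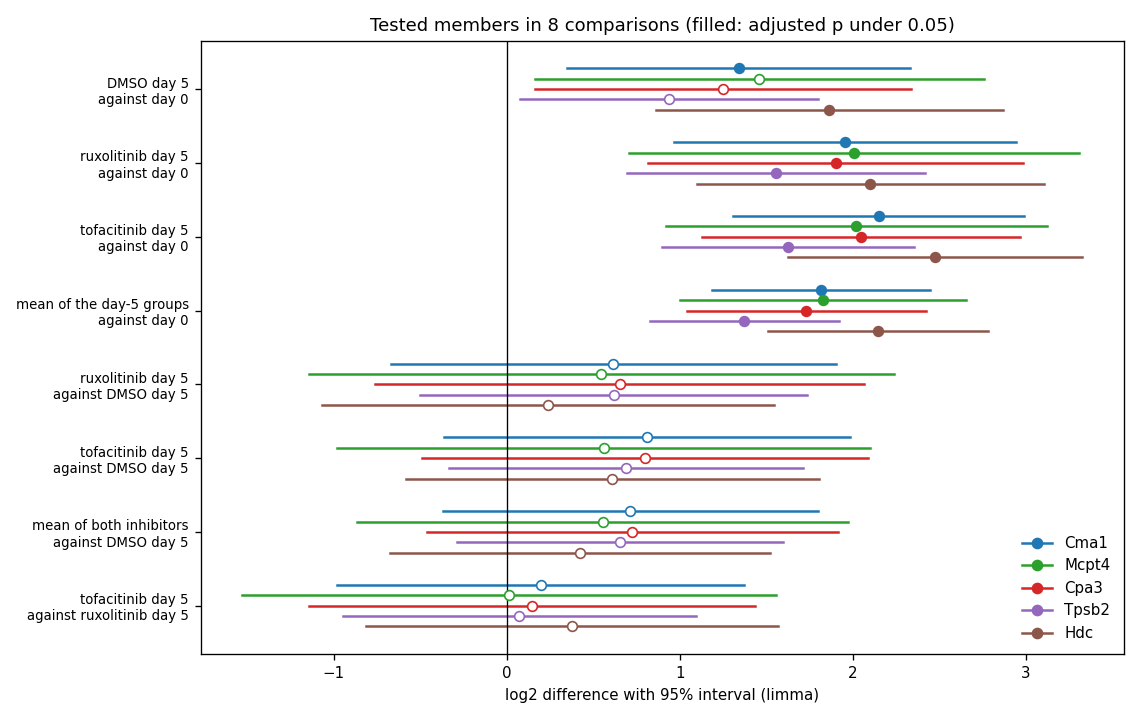
Log2 difference of the 5 tested members in the 8 comparisons with its 95% interval, filled where the adjusted p was under 0.05. All comparisons with day 0 lie above 0 and none of those between day-5 groups is filled.

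The 4 protease genes varied together between mice before any application. Over the 9 day-0 arrays the 6 pairs of proteases had Pearson's r between 0.899 and 0.968 and Spearman's rho between 0.783 and 0.967, with exact permutation p, adjusted over all 10 pairs of tested members, between 0.000524 and 0.00187 for r and between 0.00165 and 0.0287 for rho. Without the 2 mice farthest from the median, r lay between 0.778 and 0.940, and for deviations from the mean of each arm between 0.589 and 0.936. The 4 pairs of Hdc with the proteases had lower values, with r between 0.322 and 0.573 and rho between 0.20 and 0.45 (exact permutation p adjusted over the 10 pairs between 0.150 and 0.410 for r and between 0.287 and 0.613 for rho).

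Among all 16 arrays, with the group means taken out, the genes most like Cpa3 included both chymase genes. Of 12086 genes, Cma1 was the first (r = 0.894) and Mcpt4 the second (r = 0.885), with Tpsb2 at rank 27 (r = 0.769) and Hdc at rank 2480 (r = 0.403). Outside the members the 5 nearest to Cpa3 were Zdhhc14, Anapc7, Gabarap, Preb and Gm20346 (r between 0.824 and 0.879). For the mean of the 5 scaled members they were C130075A20Rik, Mxra7, Klb, Anapc7 and Rcn3 (r between 0.857 and 0.881). These correlations are descriptions over 16 arrays that share a scaling and the RNA of the same mice. The day-0 mean taken out was that of all arms together, so differences between the arms at day 0 remain in them. Over the day-0 arrays alone, Cma1 and Cpa3 had r = 0.917, and 0.589 for deviations from the arm means.

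Not all genes of the other mast cell lists were higher at day 5, and some were at background throughout. In RefSeq's order Cma1 and Mcpt4 lie on chromosome 14 in a run with Cma2, Mcpt1, Mcpt2, Mcpt9, Mcpt8, Ctsg and the granzyme genes. Of 8 further granule proteases listed, 6 had a probe set of their own, and all 6 (Tpsab1, Mcpt1, Mcpt2, Ctsg, Gzmb and Tpsg1, all named since none was tested) were at background on every array. Tpsab1, another tryptase, averaged 2.01 in tofacitinib skin, 1.81 in ruxolitinib skin, 2.04 in DMSO skin and 1.76 at day 0. Among the granule proteases with a probe set of their own, the 4 members were thus those with a level above background. A value at background does not show a change in mast cells in either direction.

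Of 11 mast cell receptors and transcription factors, 4 were tested. In the mean of the day-5 groups 3 rose and 1 fell, where 29.7% of all tested genes were called higher and 34.8% lower. Gata2 averaged 5.74 in tofacitinib skin, 5.39 in ruxolitinib skin and 5.70 in DMSO skin, against 3.92 at day 0 (1.67 ± 0.27, SE, adjusted p = 0.000109 by limma). Tal1, a partner of GATA factors in blood cells, was higher by 1.45 ± 0.24 (adjusted p = 9.95e-05), and Mitf, needed by mast cells and melanocytes, was lower by 0.34, at -0.34 ± 0.12 (adjusted p = 0.0187). Kit averaged 3.99 in tofacitinib skin and 4.05 in ruxolitinib skin, against 3.09 in DMSO skin and 3.08 at day 0. It rose with tofacitinib (0.91, adjusted p = 0.0131) and with ruxolitinib (0.95, adjusted p = 0.0347), and differed by 0.02 with DMSO (adjusted p = 0.965). The inhibitors' mean against DMSO, 0.91, did not pass (adjusted p = 0.254). Kit and Tal1 passed the filter on low values only through inhibitor arrays. Their highest values were 3.75 and 2.95 at day 0 and 3.09 and 3.96 with DMSO. Both were thus tested only because they were high with an inhibitor, which limits what their tests show. Melanocytes express Kit too. All 5 of 5 melanocyte markers rose against day 0 with tofacitinib and with ruxolitinib, and 0 of 5 with DMSO. Of all tested genes 22.7%, 12.5% and 22.2% were called higher in these comparisons. Among the markers, Tyr passed the filter only through inhibitor arrays (highest 2.08 at day 0 and 2.29 with DMSO). The part of melanocytes in Kit was not tested. In whole skin the cells that gave the values of Gata2 and Tal1 were not identified either.

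Of 10 genes of granule matrix, amine storage and eicosanoid synthesis, 6 were tested. Of these 2 rose and 4 fell in the mean of the day-5 groups, where 29.7% of all tested genes were called higher and 34.8% lower. Those that rose were Srgn (0.95), the core protein that carries heparin, and Alox5ap (0.58). Those that fell were Hpgds (-2.50), which makes prostaglandin D, Ndst2 (-1.73), which sulfates heparin in mast cells, Alox5 (-1.10) and Rab27b (-0.98). Alox5 passed the filter only through day-0 arrays (highest day-5 value 3.70). In whole skin the cells that gave the values of this list were not identified, so a fall here is not shown to be one in mast cells. Of this list Srgn, Alox5ap and Rab27b, and of the next list Gab2 and Plcg2, were named after their values were seen. Of 14 genes of IgE receptor signalling 10 were tested, of which 2 rose (Fyn and Gab2) and 3 fell (Lat, Plcg1 and Plcg2), shares near or under those of all tested genes (29.7% higher and 34.8% lower). Fcer1g, the gamma chain shared with other Fc receptors, averaged 6.87 in tofacitinib skin, 6.94 in ruxolitinib skin and 7.11 in DMSO skin, against 7.13 at day 0 (-0.16 ± 0.17, SE, adjusted p = 0.412). The signalling genes are used by other leukocytes as well. Of the tested T cell markers 5 of 5 fell, where 34.8% of all tested genes were called lower. Their array means were 4.32 to 5.25 at day 5 against 6.42 to 7.76 at day 0. Cd3d, Cd3g and Cd2 of this list, and Lat, passed the filter only through day-0 arrays, so it favoured a fall in them. Their highest day-5 values were 2.93, 3.83, 3.51 and 3.37. Whether T cells had a part in the values of the signalling genes was not tested.

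Of 9 growth and survival factors of mast cells 3 were tested, of which 2 rose and 1 fell, where 29.7% of all tested genes were called higher and 34.8% lower. Kitl, the Kit ligand, averaged 9.29 in tofacitinib skin, 9.41 in ruxolitinib skin and 9.47 in DMSO skin, against 7.84 at day 0 (1.55 ± 0.14, SE, adjusted p = 4.65e-07 by limma). Tslp, a cytokine of keratinocytes, was higher by 1.40 ± 0.31 (adjusted p = 0.00113), and Il33, an alarmin that activates mast cells, fell by 1.85, at -1.85 ± 0.19 (adjusted p = 1.63e-06). Of 6 genes of histamine receptors and breakdown 1 was tested, Hnmt (0.28, adjusted p = 0.0894).

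Markers of other leukocytes that carry Fc receptors or histamine were mostly too low to test. Of the basophil markers 0 of 4 and of the eosinophil markers 0 of 6 were tested, and the basophil protease Mcpt8 averaged 2.12 in tofacitinib skin, 2.38 in ruxolitinib skin, 2.25 in DMSO skin and 2.12 at day 0, close to background. Of 7 neutrophil markers 2 were tested. With tofacitinib 1 rose, where 22.7% of all tested genes were called higher, and neither passed in the mean of the day-5 groups. Of 8 dendritic cell and macrophage markers 1 rose and 3 fell in that mean, where 29.7% of all tested genes were called higher and 34.8% lower. Itgax of this list would not have passed the filter on day-5 arrays alone, so the filter favoured a fall in it. Its highest day-5 values were 4.44 with tofacitinib, 3.34 with ruxolitinib and 3.64 with DMSO.

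Markers of the layers under the epidermis rose in part at day 5 as well. These counts are from the mean of the day-5 groups, where 29.7% of all tested genes were called higher and 34.8% lower. Of 8 fibroblast markers 5 rose, with a median difference of 1.55 over the list, and their mean on an array ran between 9.62 and 10.36 at day 5 and between 6.77 and 8.93 at day 0, without overlap. All 6 of 6 endothelial markers rose (median 1.35), with array means of 4.60 to 5.54 at day 5 against 2.58 to 3.93 at day 0. Pecam1, Cdh5, Kdr and Tie1 passed the filter on low values only through day-5 arrays, so it favoured a rise in them. Their highest day-0 values were 3.77, 3.40, 3.34 and 3.95. Of 8 skeletal muscle markers 7 rose (median 0.25), with array means of 13.24 to 13.50 at day 5 against 12.43 to 13.24 at day 0. Of 4 tested adipocyte markers 2 rose (median 1.05), with array means of 10.14 to 10.86 at day 5 against 6.55 to 10.27 at day 0. All 6 of 6 basal keratinocyte markers fell (median -0.87). In the separate comparisons with day 0, 5 of 8 muscle markers were called higher with tofacitinib, 0 of 8 with ruxolitinib and 3 of 8 with DMSO. For the adipocyte markers it was 1 of 4 in each. Of all tested genes 22.7%, 12.5% and 22.2% were called higher in these comparisons. With the fibroblast mean of each array as a covariate, a fit added after seeing the data, 0 of the 5 members passed limma in any comparison with day 0. At an unadjusted p under 0.05 the count was 1 with tofacitinib, 0 with ruxolitinib, 0 with DMSO and 1 in the mean of the day-5 groups. In that fit the mean of the day-5 groups stood above day 0 by 0.93 for Cma1 (adjusted p = 0.184), 0.38 for Mcpt4 (adjusted p = 0.672), 0.86 for Cpa3 (adjusted p = 0.276), 0.51 for Tpsb2 (adjusted p = 0.390) and 1.06 for Hdc (adjusted p = 0.108). Since the covariate itself separates the days on every array, day and tissue layer cannot be told apart for these genes. With the muscle mean as the covariate, 3 of 5 passed in the mean of the day-5 groups, with Hdc at 1.59 (adjusted p = 0.00477), and 0 of 5 with DMSO (1 at an unadjusted p under 0.05). Within the 9 day-0 arrays, correlations of the 5 members with the fibroblast, endothelial, adipocyte and basal keratinocyte means, 20 in all, did not pass (lowest adjusted exact permutation p 0.197). Mcpt4 with the fibroblast mean had r = 0.621 and rho = 0.583 (adjusted exact permutation p = 0.197 and 0.328), and r = -0.091 without the 2 mice farthest from the median. Mcpt4 with the adipocyte mean had r = 0.736 and rho = 0.60 (adjusted exact permutation p = 0.197 and 0.328), r = 0.677 without the 2 farthest mice and 0.707 for deviations from the arm means.

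**Figure D5:**
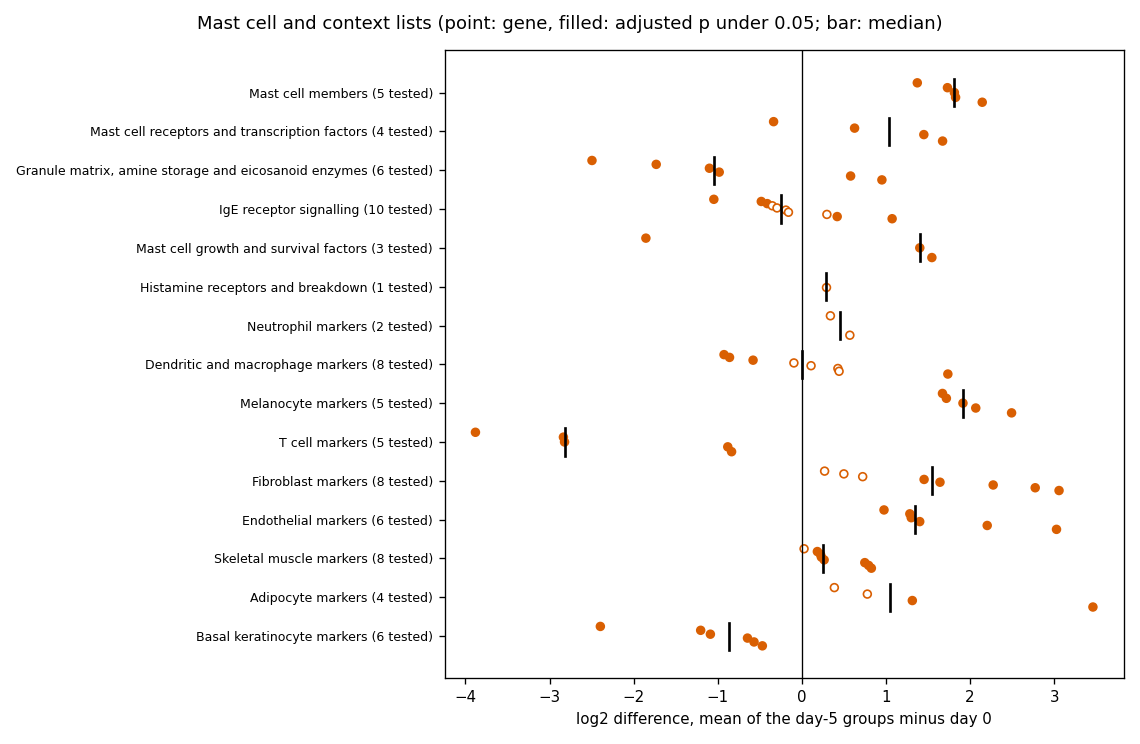
Log2 difference between the mean of the day-5 groups and day 0 for the tested genes of each list, filled where the adjusted p was under 0.05, with the median of the list as a bar. The 5 mast cell members lie to the right, as do the fibroblast and endothelial lists, while the T cell and basal keratinocyte lists lie to the left.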

How the data were processed

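The deposited log2 values per probe set were made by the authors with GCRMA, which corrects background and summarises probe sets, per the submitters' processing notes. Its version is not given in the sources used here. Per the labels, RNA of flash-frozen skin was extracted with a column kit and amplified (Ovation). For arrays, the number of arrays limits the precision.

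Of 45101 probe sets, 34958 had 1 symbol in the platform's gene table, and 34754 were matched by gene ID to RefSeq with 0 symbols changed. Tests used limma (version 3.58.1, R 4.3.3), with a mean for each of the 4 groups over 16 arrays, the mouse as a random block (consensus correlation 0.0982) and Benjamini-Hochberg adjustment over 12087 genes within each of 8 comparisons. Genes were called at an adjusted p under 0.05. The procedure was also run on simulated data with independent noise and no effect of the mouse. That run does not check the handling of paired arrays, and its outcome is not given here.

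Per the labels, each day-5 array is paired with a day-0 array of its own mouse. The deviations of paired arrays from their group means correlated above 0.1 in 2 of 7 pairs (range -0.183 to 0.178). The members and the 18 lists were chosen with earlier results of these data known. All members are named, and of each other list the 3 genes with the smallest p in the mean of the day-5 groups against day 0, with Kit, Kitl, Fcer1g, Gata2, Tpsab1 and Mcpt8 always eligible. The 5 genes most like the members and most like Cpa3 are named as well. The text prints a part of these, and names Srgn, Alox5ap, Rab27b, Gab2, Plcg2, Mitf and the untested granule proteases outside this rule, chosen after their values were seen. Genes named for passing the filter only through some groups were also chosen after their values were seen. Alternatives changed the block, the samples in the fit, the filter, the normalization, the moderation, the probe sets and the label of mouse 7, or left out single arrays. Both covariate fits, the day-0 arm fit and day-0 correlations with tissue lists, 4 in all, were added after seeing the data.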

Additional observations from a re-analysis of the deposited data

How the results depend on the processing

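Against day 0, 559 of 560 alternative values of the 5 tested members stayed positive, and 461 passed the threshold. The exception was the other probe set of Tpsb2 with tofacitinib, at -0.15. Between day-5 groups 0 of 560 alternative values passed (lowest adjusted p 0.165), and 52 turned negative. Causes were not tested. The number of arrays and levels near background at day 0 limit all of these values.

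The count of members called with DMSO, 2 of 5, became 4 with the mouse as a fixed replicate block, 3 with eBayes with trend and robust, 5 with only the groups compared, with separate day-0 means, with quantile normalization and with the array of mouse 7 as ruxolitinib, and 0 with the fibroblast or the muscle covariate. Leaving out single arrays gave 0 to 5. With ruxolitinib, 5 of 5 became 1 with the replicate block, 3 with separate day-0 means, 3 with the filter at 6 (which leaves 3 members), 0 with the fibroblast covariate and 4 with the muscle covariate, and 1 to 5 without single arrays. With tofacitinib and in the mean of the day-5 groups, 5 of 5 became 3 with the filter at 6, 0 with the fibroblast covariate and 3 with the muscle covariate. The mouse as a fixed replicate block changed no other count of calls among the members.

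The differences between day-5 groups that turned negative were these. With the replicate block, ruxolitinib minus DMSO was -0.34 for Cma1, -0.82 for Mcpt4, -0.78 for Cpa3 and -0.11 for Hdc, tofacitinib minus DMSO was -0.060 for Mcpt4, and the inhibitors' mean minus DMSO was -0.44 for Mcpt4 and -0.22 for Cpa3. With separate day-0 means, ruxolitinib minus DMSO was -0.64, -1.25, -0.96, -0.19 and -0.47 for Cma1, Mcpt4, Cpa3, Tpsb2 and Hdc, tofacitinib minus DMSO was -0.36 for Mcpt4, and the inhibitors' mean minus DMSO was -0.11, -0.81, -0.35 and -0.17 for Cma1, Mcpt4, Cpa3 and Hdc. With the array of mouse 7 as ruxolitinib, tofacitinib minus ruxolitinib was -0.34, -0.60, -0.37, -0.76 and -0.57 for Cma1, Mcpt4, Cpa3, Tpsb2 and Hdc. For Mcpt4 it was -0.069 with no replicate block and with only the groups compared, -0.0187 with no filter, -0.031 with mean probe sets, -0.0039 after quantile normalization and -0.31 with the muscle covariate, which gave -0.10 for Cpa3 and -0.049 for Tpsb2. With the other probe set, Tpsb2 was at -0.19 for ruxolitinib minus DMSO, -0.42 for tofacitinib minus DMSO, -0.30 for the inhibitors' mean minus DMSO and -0.22 for tofacitinib minus ruxolitinib, and Hdc at -0.076 for ruxolitinib minus DMSO and -0.011 for the inhibitors' mean minus DMSO. With the fibroblast covariate, ruxolitinib minus DMSO was -0.047 for Hdc. Leaving out single arrays, ruxolitinib minus DMSO ran between -0.087 and 1.01 for Mcpt4 and between -0.0079 and 0.57 for Hdc, and tofacitinib minus ruxolitinib between -0.49 and 0.61 for Mcpt4, -0.024 and 0.31 for Cpa3, -0.38 and 0.48 for Tpsb2, and -0.037 and 0.76 for Hdc.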
